A study of Mus musculus with 6 samples.

Results

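The genes examined here are 34 genes of glycolysis and of the response to low oxygen, out of 24061 genes in a table of RNA sequencing counts from cultured mouse lung fibroblasts. They were the rows whose current gene symbol is on a list of glycolytic enzymes, their regulators and transporters, the oxygen-sensing factors and well-known hypoxia-inducible genes; all 34 were found and all 34 passed the filter on low counts. Another 3 rows carry a member's name only as a synonym. Of these, Pigq and Pdpk1 are different genes and were not counted, and Eno1b is described beside Eno1.

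The cells were resident fibroblasts grown from fibrotic lungs of TGF-alpha transgenic mice, and this genotype is shared by both groups. They were transfected with a stealth control siRNA (control libraries 1 to 3) or with a stealth siRNA against Wt1 (treated libraries 4 to 6), 3 libraries a group. The sources used here do not give the promoter of the transgene, the age of the mice, the oxygen and glucose of the cultures or the time after transfection. Whether the 3 libraries of a group stem from different cultures or mice is not stated in the labels. The p-values therefore reflect the spread among these samples alone, which may be technical.

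Glycolysis splits glucose into pyruvate in the cytosol and yields ATP without oxygen; pyruvate then enters mitochondria or is reduced to lactate and exported. Under low oxygen the prolyl hydroxylases of the Egln family no longer mark the alpha subunits of the hypoxia-inducible factor (HIF) for destruction, and the stabilised factor raises the transcription of glucose transporters, most glycolytic enzymes, pyruvate dehydrogenase kinases and genes of mitophagy and pH control. HIF binds a short DNA core, ACGTG or GCGTG. In lung fibrosis, activated fibroblasts are known for a high glycolytic rate.

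Total counts were 26141921 to 30399809 in the control libraries and 27512156 to 32085698 in the treated libraries. Wt1, the targeted gene, stood at 48.8 to 55.7 CPM (counts-per-million, scaled between libraries by TMM) in controls and at 7.92 to 11.4 CPM after its siRNA. The 9 fibroblast markers summed to 21200 to 30440 CPM in controls and 32960 to 40190 CPM after Wt1 siRNA, with 5 higher and 2 lower. Col1a1 was among the higher ones (7982 ± 2651 and 17421 ± 2514 CPM, SD, n = 3), whereas Pdgfra, at 1181 ± 70.9 and 523 ± 96.4 CPM, and Col3a1, at 7430 ± 1121 and 5391 ± 69.2 CPM, were the lower ones. The summed level in controls and after Wt1 siRNA was 49.2 to 65.1 and 42.1 to 48.1 CPM for 9 epithelial markers, 98.6 to 122 and 80.3 to 99.4 CPM for 7 endothelial markers, and 40.1 to 49.8 and 31.4 to 37.3 CPM for 8 macrophage markers. Of these 3 lists 0 genes were higher and 3 lower (Krt18, Kdr and Cd14). Scgb1a1 had 0 counts in every library, Adgre1 had 0 in the controls, and Sftpc and Sftpb had 0 after Wt1 siRNA. The 6 mesothelial markers, which include Wt1, summed to 226 to 279 and 144 to 187 CPM, with 2 higher and 3 lower. The 9 genes of proliferating cells, 8 of them lower, summed to 562 to 780 CPM in controls and to 282 to 363 CPM after Wt1 siRNA; the part of any of these shifts in the results that follow was not tested.

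The promoter windows of members were searched for the core that HIF binds. Whether HIF acts through these windows was not tested. RefSeq windows (GRCm38.p6, a patch release of the mm10 build in the submitters' processing notes) of 250 bases before to 50 bases after a gene's start were found for 31 of the 34 members, some with several starts, and none was found for Ndrg1 (chr15:66929318-66969641), Bnip3l (chr14:66985238-67008877) and Epas1 (chr17:86753864-86833410). The following lines print the 250 bases before the start, 5′ to 3′ on the gene's strand, with each hypoxia core (ACGTG or GCGTG on either strand) in capitals. Egln3, Pdk1, Pfkfb3 and Pfkl fell after Wt1 siRNA, whereas Ldha and Pgk1 did not pass the test. The windows printed are examples, and all of them hold a core. Pdk1, Pfkfb3 and Ldha each have another window at a different start, with 0, 1 and 2 cores. Their windows shown hold 2, 3 and 5, counted without overlap and to 50 bases after the start. Which start these cells use was not tested.
Egln3, chr12:54203875-54204124, minus strand: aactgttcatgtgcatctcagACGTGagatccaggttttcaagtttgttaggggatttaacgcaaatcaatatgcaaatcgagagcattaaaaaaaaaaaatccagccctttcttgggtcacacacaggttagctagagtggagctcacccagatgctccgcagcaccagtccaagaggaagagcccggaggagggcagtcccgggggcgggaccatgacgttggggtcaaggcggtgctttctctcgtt
Pdk1, chr2:71872974-71873223, plus strand: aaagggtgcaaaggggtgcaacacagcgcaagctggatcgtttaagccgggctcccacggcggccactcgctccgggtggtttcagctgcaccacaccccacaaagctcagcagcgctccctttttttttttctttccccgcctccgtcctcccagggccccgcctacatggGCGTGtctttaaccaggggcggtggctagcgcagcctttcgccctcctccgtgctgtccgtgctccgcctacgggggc
Pfkfb3, chr2:11502091-11502340, minus strand: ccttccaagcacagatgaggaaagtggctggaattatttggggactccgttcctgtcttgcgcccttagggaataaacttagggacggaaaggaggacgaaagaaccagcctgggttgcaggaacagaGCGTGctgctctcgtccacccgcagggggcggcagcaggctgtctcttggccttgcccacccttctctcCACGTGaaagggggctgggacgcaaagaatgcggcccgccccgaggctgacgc
Pfkl, chr10:78009808-78010057, minus strand: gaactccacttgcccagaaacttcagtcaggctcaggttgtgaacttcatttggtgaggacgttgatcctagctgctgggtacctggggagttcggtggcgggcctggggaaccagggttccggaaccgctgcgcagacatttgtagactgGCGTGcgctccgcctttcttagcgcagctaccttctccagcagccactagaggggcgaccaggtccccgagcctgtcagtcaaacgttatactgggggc
Ldha, chr7:46845554-46845803, plus strand: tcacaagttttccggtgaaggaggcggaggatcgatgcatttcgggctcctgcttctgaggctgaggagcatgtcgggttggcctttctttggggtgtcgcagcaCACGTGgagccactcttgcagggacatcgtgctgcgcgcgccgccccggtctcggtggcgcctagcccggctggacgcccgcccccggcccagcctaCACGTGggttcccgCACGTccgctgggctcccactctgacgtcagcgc
Pgk1, chrX:106186850-106187099, plus strand: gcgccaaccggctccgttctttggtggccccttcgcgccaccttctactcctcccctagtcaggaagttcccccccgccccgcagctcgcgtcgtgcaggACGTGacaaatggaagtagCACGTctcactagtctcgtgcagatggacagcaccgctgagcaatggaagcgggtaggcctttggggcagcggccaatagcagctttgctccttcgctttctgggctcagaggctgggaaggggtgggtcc

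A core stood in 36 of 46 member windows (78.3%) and in 50.2% of 21608 windows of all genes in the table, and 28 of 31 member genes (90.3%) had at least 1, against 53.1% of 17909 genes. The member windows were also richer in G and C, with a median of 61.8% against 56.7%. Members were listed as known genes of glycolysis and hypoxia, so these shares describe the list and not an effect of Wt1 siRNA. Windows of the same gene can overlap, so that a core can be counted more than once among the windows. Among members with a window, a core was found in 6 of the 7 that fell, the exception being Eno2, and in 22 of the 24 that did not pass, the exceptions being Gpi1 and Tpi1. In Egln3 the core began at position -229 from the start. In the Pfkfb3 window shown, the capitals CACGTG hold the core on both strands, a form that is also an E-box, the site of MYC-type factors; the Ldha window holds it at a pair of places. The longer core of WT1 and EGR factors, GCGTGGG, which contains GCGTG, was searched on both strands and was found in 3 member windows (6.52%), those of Aldoc, Pdk3 and Pfkp, and in 6.47% of all windows. A match of letters describes the window only and shows no binding.

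After Wt1 siRNA 10 of the 34 genes fell and 0 rose. They were Pfkl, Pfkfb3, Eno1, Eno2 and Pkm of glycolysis, the pyruvate dehydrogenase kinase Pdk1, the oxygen-sensing genes Epas1 and Egln3, and the hypoxia-inducible genes Ndrg1 and Bnip3l, with falls of 0.32 to 0.91 on the log2 scale (edgeR's quasi-likelihood test with p-values adjusted by Benjamini-Hochberg over 14190 genes, threshold 0.05). The 10 are 29.4% of the members, where 10.3% of all genes tested were lower and 9.05% higher. The members were chosen with earlier results of these data known, and the shares over all genes were not matched for abundance. The count higher was also 0 with DESeq2 and with limma-voom, and 1 gene, Pfkfb4, was higher at an unadjusted p below 0.05. The median log2 fold change of the members was -0.22 and that of all genes tested 0.0035, and 27 of the 34 estimates were negative. In 14 members (41.2%) every treated library was lower than every control and in 2, Pfkfb4 and Aldoa, above them, against 18.3% and 18.1% of all genes tested. These are bulk samples, in which fewer cells of a type and less RNA per cell cannot be told apart. Fewer members passed with 5 libraries: 6 fell with control library 3 left out, 3 with treated library 4 left out, and 5 with treated library 5 or 6 left out. Over all genes 1284 were higher and 1459 lower. These were 578 and 785 with library 4 left out, 836 higher with library 5 left out, and 855 and 1829 with scaling by library size alone.

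**Figure D1:**
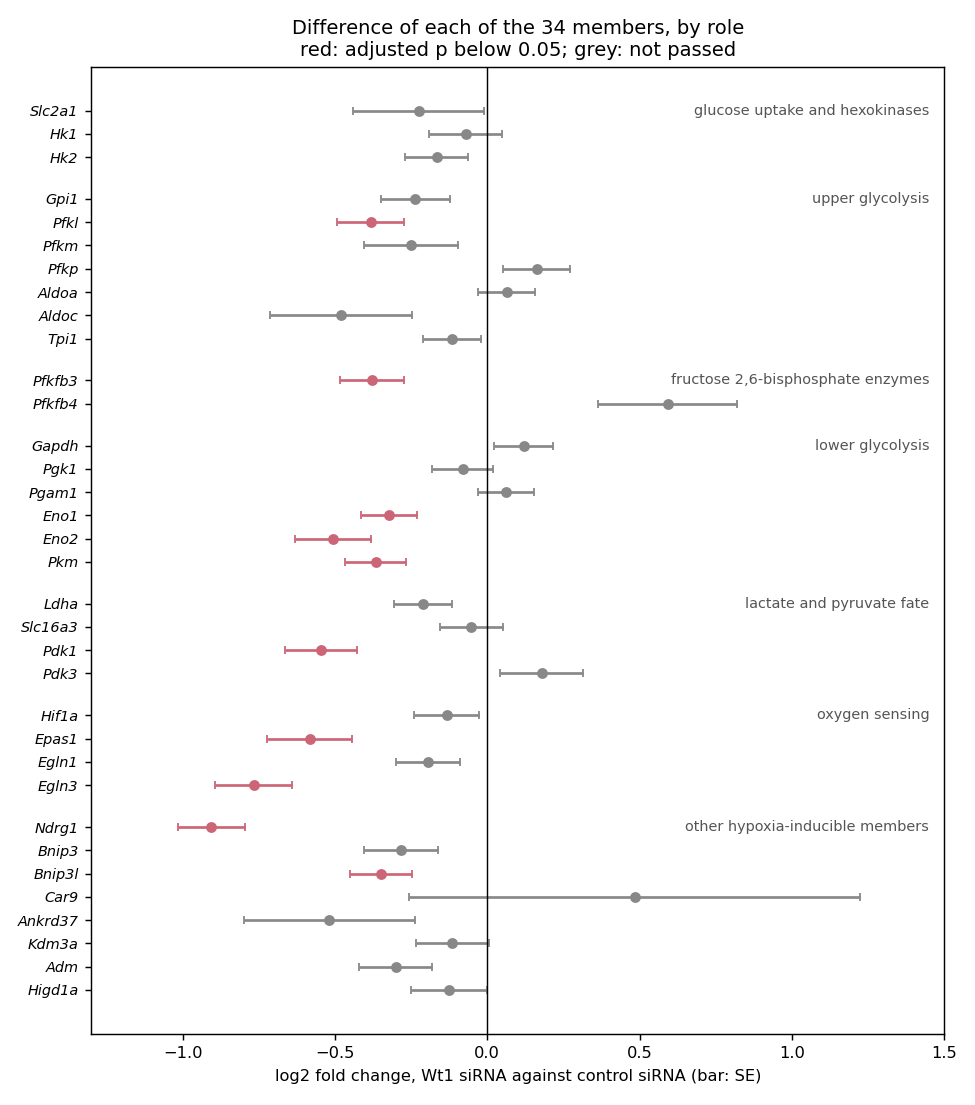
Log2 fold change of each of the 34 members after Wt1 siRNA against control siRNA (x axis), grouped by role, with bars of 1 standard error; red points passed an adjusted p below 0.05 (edgeR) and grey points did not. The 10 red points lie at -0.32 to -0.91, and 27 of the 34 points are below 0.

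The counts by role in this and the following paragraphs are read against all genes tested, of which 10.3% were lower and 9.05% higher. Groups this small were not tested against these shares. Of the 3 members for glucose uptake and trapping 0 passed the test. Slc2a1, the main glucose transporter of proliferating cells, stood at 564, 977 and 1124 CPM in control libraries 1 to 3 and at 695, 938 and 646 CPM in Wt1 siRNA libraries 4 to 6. Control library 1 was the lowest of the 6, the groups overlapped, and the log2 fold change was -0.23 ± 0.21 (SE, adjusted p = 0.523, edgeR). Leaving out one library at a time moved this value between -0.46 and -0.02. The hexokinases, which phosphorylate glucose, did not pass: Hk1 had 175 ± 27.1 and 167 ± 5.80 CPM (SD, n = 3) and Hk2 had 263 ± 21.8 and 234 ± 11.1 CPM in controls and after Wt1 siRNA. Their log2 fold changes were -0.07 ± 0.12 and -0.17 ± 0.10.

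In upper glycolysis 1 of 7 genes fell, where 10.3% of all genes tested were lower. Pfkl, the liver-type subunit of phosphofructokinase, which catalyses the committed step, had 203, 243 and 201 CPM in the controls and 160, 174 and 163 CPM after Wt1 siRNA. All 3 treated libraries were below all controls, with a log2 fold change of -0.38 ± 0.11 (SE) and an adjusted p = 0.0291 (edgeR). The muscle-type subunit Pfkm had -0.25 ± 0.15 and the platelet-type subunit Pfkp 0.16 ± 0.11, and neither passed. Gpi1, which turns glucose phosphate into fructose phosphate, was at 588 ± 75.4 and 500 ± 24.3 CPM (-0.24 ± 0.11, adjusted p = 0.170), with groups that did not overlap. Aldoa, the aldolase of most tissues, Aldoc, its brain-type form, and Tpi1, which interconverts the triose phosphates, had log2 fold changes of 0.06, -0.48 and -0.12 with adjusted p from 0.182 to 0.694 (edgeR). The row of Aldoart1, a retrogene copy whose coding sequence is identical to that of Aldoa at 93.6% of aligned bases, held 6.46% to 8.49% of the Aldoa count, so that reads could be shared. Without control library 2 or treated library 4, 5 or 6 the adjusted p of Pfkl was 0.0702, 0.144, 0.0528 and 0.0750.

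Members of the bifunctional family Pfkfb make and break the sugar phosphate that activates phosphofructokinase. Pfkfb3, the form with the highest kinase activity, had 164, 162 and 176 CPM in the controls and 140, 128 and 118 CPM after Wt1 siRNA. No treated library reached the controls (-0.38 ± 0.11, adjusted p = 0.0260, edgeR). Pfkfb4, another hypoxia-inducible form, was far less abundant and had 8.18, 8.97 and 10.7 CPM against 11.4, 11.5 and 19.0 CPM. All 3 treated libraries were above the controls, library 6 the most, but the log2 fold change of 0.59 ± 0.23 did not pass (adjusted p = 0.0906); it was 0.30 without library 6. The adjusted p of Pfkfb3 was 0.0544 and 0.0869 without control library 1 and 3 and 0.0598, 0.0781 and 0.0895 without treated library 4, 5 and 6.

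In lower glycolysis 3 of 6 genes fell. Gapdh, the enzyme often used as a reference gene, was at 2778, 3224 and 2833 CPM and at 3271, 3255 and 3069 CPM, a log2 fold change of 0.12 ± 0.10 (adjusted p = 0.442, edgeR). Pgk1, the first ATP-producing kinase, and Pgam1, the phosphoglycerate mutase, had log2 fold changes of -0.08 ± 0.10 and 0.06 ± 0.09. Pkm, the pyruvate kinase of most tissues and of dividing cells, fell from 2084, 2382 and 2010 CPM to 1696, 1741 and 1586 CPM. Every treated library was below every control (-0.37 ± 0.10, adjusted p = 0.0244, and 0.108 and 0.0757 without treated library 4 and 6). Counts per gene do not separate the M1 and M2 splice forms of Pkm.

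Both enolases among the members, which make phosphoenolpyruvate, fell, while Eno3, the muscle-type form and no member, was at 30.1 ± 4.77 and 41.2 ± 11.2 CPM (0.45 ± 0.19, adjusted p = 0.128, edgeR). Eno2, the neuron-type form, went from 104, 104 and 85.6 CPM to 77.9, 62.5 and 66.4 CPM (-0.51 ± 0.12, adjusted p = 0.0142, and 0.0559 and 0.0626 without control library 1 and treated library 5). Eno1, the main form, went from 1687, 1884 and 1752 CPM to 1410, 1430 and 1416 CPM. The treated libraries lay within a narrow range below all controls, with a log2 fold change of -0.32 ± 0.09 and an adjusted p = 0.0295 (edgeR). That p was 0.0505 and 0.0558 without control library 2 and 3, and 0.140, 0.0791 and 0.0674 without treated library 4, 5 and 6.

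The Eno1 row was not independent of another row. Eno1b, which the GENCODE annotation tags as a retrogene, shares 1294 of the 1302 coding bases of Eno1 (99.4%). Its row held 106037, 103901 and 89709 counts in the controls and 73589, 75954 and 88250 after Wt1 siRNA. The ratio of Eno1b to Eno1 counts was 1.94, 1.941, 1.925, 1.94, 1.925 and 1.95 in libraries 1 to 6, so that both rows moved as one. The log2 fold change of Eno1b was -0.32 ± 0.09, and that of both rows summed into 1 gene, an alternative chosen after these counts were seen, was -0.32 (adjusted p = 0.0268, edgeR). The sources used here do not say how reads were assigned between the copies, and the level of each is uncertain.

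**Figure D2:**
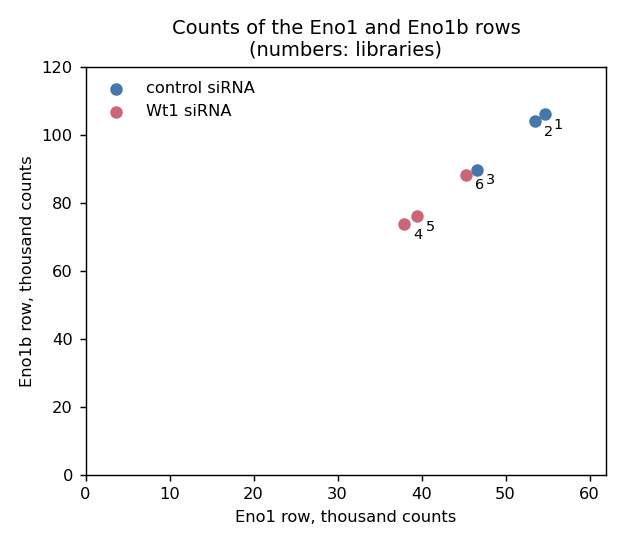
Counts in the Eno1 row (x axis) and in the Eno1b row (y axis) for the 6 libraries, in the unit that the axis labels give, with the library numbers beside the points. The points lie on a line through the origin, with ratios of 1.925 to 1.95 in both groups.

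At the fate of pyruvate, 1 of 4 genes fell. Pdk1, the kinase that switches off pyruvate dehydrogenase and so keeps pyruvate out of mitochondria, had 117, 139 and 143 CPM in the controls and 90.3, 101 and 82.8 CPM after Wt1 siRNA. The groups did not overlap (-0.55 ± 0.12, adjusted p = 0.00747, edgeR, and 0.0520 without treated library 4). Its relative Pdk3 was at 46.1 ± 5.67 and 52.2 ± 6.54 CPM (0.18 ± 0.14, adjusted p = 0.406). Ldha, the lactate dehydrogenase subunit that favours lactate, was at 1229, 1099 and 1197 CPM and at 1017, 1053 and 975 CPM. All treated libraries were below the controls, but the difference of -0.21 ± 0.10 did not pass (adjusted p = 0.150). Slc16a3, the lactate exporter MCT4, was at 175 ± 14.4 and 169 ± 1.2 CPM (-0.05 ± 0.10).

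Among the oxygen-sensing genes 2 of 4 fell. Epas1, which encodes the HIF-2 alpha subunit, had 34.4, 28.8 and 37.4 CPM in the controls and 20.7, 23.0 and 23.5 CPM after Wt1 siRNA. The highest treated library was below the lowest control (-0.58 ± 0.14, adjusted p = 0.0118, edgeR, and 0.0548 and 0.0763 without control library 3 and treated library 4). Hif1a, which encodes HIF-1 alpha and is regulated mainly through the stability of its protein, was at 992, 1025 and 1211 CPM and at 950, 952 and 1041 CPM. Its groups overlapped and its log2 fold change was -0.13 ± 0.11 (adjusted p = 0.434). Egln3, a prolyl hydroxylase that is itself a HIF target, fell from 86.0, 82.4 and 98.8 CPM to 58.2, 44.8 and 54.0 CPM. This was a log2 fold change of -0.77 ± 0.13, or 1.70-fold lower (adjusted p = 0.00159, edgeR), and the call stood in all 14 alternatives, with adjusted p from 1.78e-06 to 0.0114. Egln1, the hydroxylase that chiefly sets HIF-1 alpha stability under normal oxygen, was at 210 ± 6.50 and 184 ± 17.4 CPM (-0.19 ± 0.11, adjusted p = 0.234), with groups that did not overlap.

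Of the other 8 hypoxia-inducible members 2 fell. Ndrg1, a stress-response protein induced by hypoxia and by differentiation, had 237, 281 and 252 CPM in the controls and 140, 145 and 125 CPM after Wt1 siRNA. The groups stood far apart, and the log2 fold change of -0.91 ± 0.11 (1.87-fold lower, adjusted p = 2.51e-04, edgeR) was the largest fall of the 34 genes. In the 14 alternatives it stayed between 3.12e-12 and 0.00418 in adjusted p. Bnip3l, a receptor for mitophagy also called Nix, had 238, 212 and 221 CPM against 185, 173 and 168 CPM. Its groups did not overlap (-0.35 ± 0.10, adjusted p = 0.0310), and its adjusted p was 0.102 and 0.0680 without control library 1 and 3 and 0.0910, 0.0928 and 0.0904 without treated library 4, 5 and 6. Its relative Bnip3 was at 530, 626 and 719 CPM and at 513, 549 and 481 CPM, with groups that overlapped (-0.28 ± 0.12, adjusted p = 0.130). Its value was -0.38 (adjusted p = 0.0485) without control library 1 and -0.17 (adjusted p = 0.403) without control library 3.

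The remaining members of this kind did not pass. Adm, the vasodilator peptide adrenomedullin, had 267 ± 34.9 and 217 ± 15.9 CPM and groups that did not overlap (-0.30 ± 0.12, adjusted p = 0.0988, edgeR). Kdm3a, a histone H3K9 demethylase, and Higd1a, a mitochondrial protein, had log2 fold changes of -0.11 ± 0.12 and -0.13 ± 0.13. Ankrd37, an ankyrin-repeat protein, was low at 5.95 ± 1.87 and 4.15 ± 0.54 CPM (-0.52 ± 0.28, and -0.25 without control library 2). Car9, the surface carbonic anhydrase widely used as a marker of hypoxia, was near the limit of detection, with 8, 10 and 26 counts in the controls and 14, 20 and 30 counts after Wt1 siRNA. No difference in Car9 was detected (0.48 ± 0.74), and the size of difference that this depth could show was not computed.

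**Figure D3:**
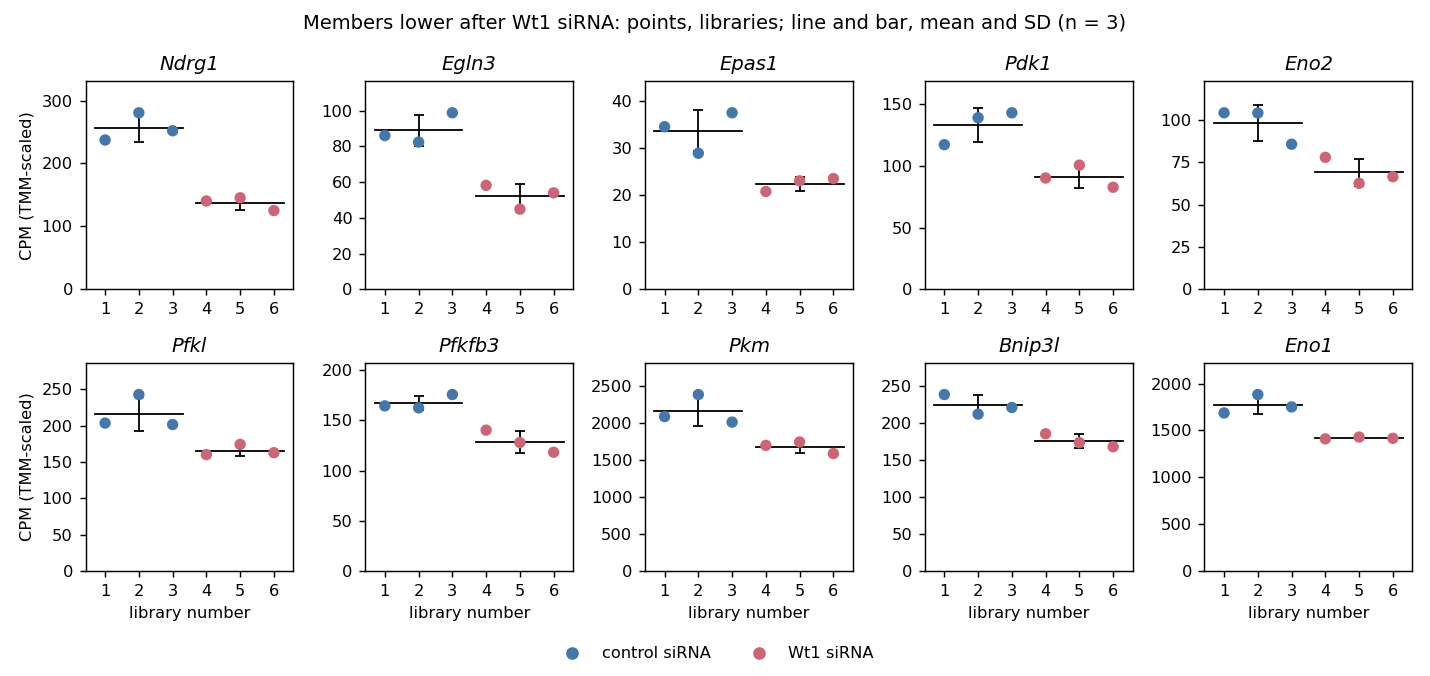
CPM of the 10 members that fell, by library (x axis, library number), with control siRNA in blue, Wt1 siRNA in red, and lines and bars for the mean and SD of 3 libraries; each y axis starts at 0. In all 10 panels the 3 red points lie below the 3 blue points, from Ndrg1 (-0.91 on the log2 scale) to Eno1 (-0.32).

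Levels of different genes were compared as CPM per kilobase of the longest coding transcript. On this scale Gapdh stood at 2074 in controls, followed by Pkm at 888, Eno1 at 875, Pgk1 at 778, Aldoa at 713, Pgam1 at 702, Ldha at 647 and Tpi1 at 544. The entry steps stood lower, with Slc2a1 at 272, Gpi1 at 204, Pfkl at 57.9, Hk2 at 47.7 and Hk1 at 41.0 CPM per kilobase. With the length of all exons Gapdh stood at 1970, Pkm at 830, Eno1 at 697 and Aldoa at 606. The Eno1b row, whose reads may be mixed with those of Eno1, stood at 1917 and, with all exons, at 1830 CPM per kilobase. Both values were above those of Pkm. The place of Eno1 in the order, that at the top included, therefore depends on how these reads were assigned. Of the oxygen-sensing genes Hif1a was at 228, Egln1 at 58.5, Egln3 at 33.5 and Epas1 at 6.08 CPM per kilobase.

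The shares of genes within 8 families of isoenzymes were compared, and no share passed the test after adjustment. Pfkp made up 21.6%, 20.8% and 21.9% of the length-scaled level of the 3 phosphofructokinase genes in the controls and 28.3%, 27.8% and 27.8% after Wt1 siRNA, while the share of Pfkl went from 59.6 ± 1.40% to 53.4 ± 1.71% (SD, n = 3). Egln3 made up 36.3 ± 1.5% of Egln1 and Egln3 in controls and 27.8 ± 2.31% after Wt1 siRNA. Pfkfb4 made up 6.41%, 7.07% and 7.71% of Pfkfb3 and Pfkfb4 in the controls and 10.1%, 10.97% and 18.1% after Wt1 siRNA, and Epas1 2.61 ± 0.27% and 1.92 ± 0.10% of Hif1a and Epas1. For each of these shares, and for that of Aldoc within the aldolases, the groups did not overlap. The exact permutation test gave a two-sided p = 0.1, the smallest that 3 libraries against 3 allow, and 0.167 adjusted over 10 shares in 8 families. The share of Pfkm was 18.9 ± 1.64% and 18.6 ± 1.49%, with groups that overlapped (exact permutation p = 0.7). The share of Pdk1 among Pdk1 and Pdk3 was 54.1 ± 5.59% and 41.8 ± 5.51%, with groups that overlapped (exact permutation p = 0.2). The shares of Hk1 and of Eno2 had an exact permutation p = 0.4 and 0.2. The families were chosen after the values of their genes had been seen.

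**Figure D4:**
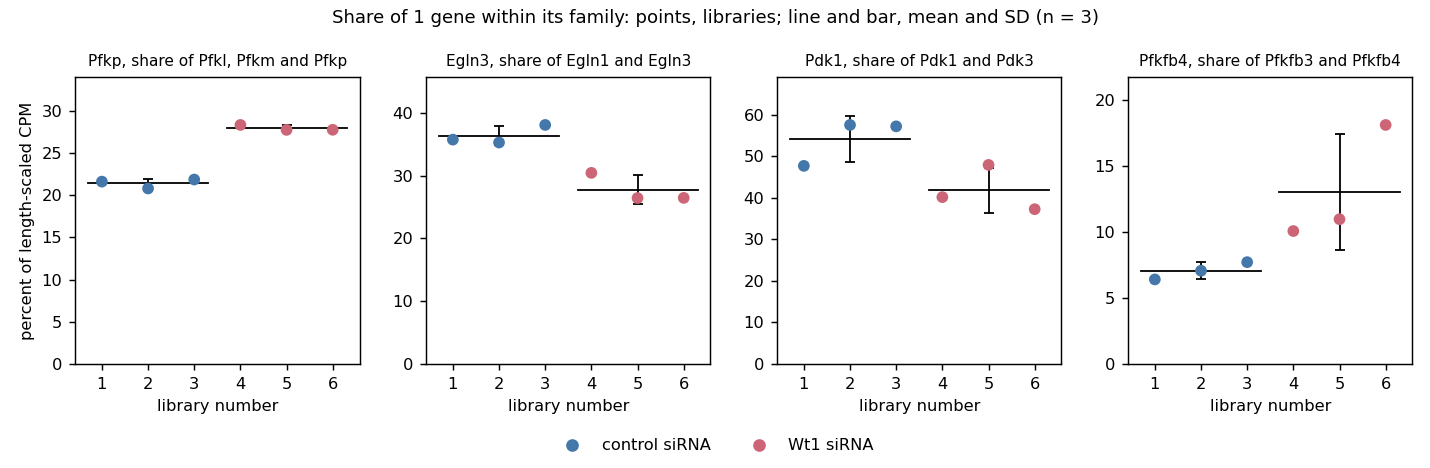
Share of 1 gene in the length-scaled CPM of the members of its family (y axis, percent), by library (x axis, library number), with control siRNA in blue, Wt1 siRNA in red, and lines and bars for the mean and SD of 3 libraries. Pfkp lies at 20.8% to 21.9% in controls and 27.8% to 28.3% after Wt1 siRNA, and the Pdk1 groups overlap.

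Other genes of the pathway gave no common direction. The counts in this and the following lists are read against all genes tested, of which 9.05% were higher and 10.3% lower. Of 27 further glycolysis isoenzymes and sugar or lactate transporters 19 were tested, of which 3 rose, 2 fell and 14 did not pass. Adpgk, an ADP-dependent glucokinase, rose from 30.2 ± 4.0 to 57.0 ± 5.88 CPM (0.92 ± 0.14, adjusted p = 8.58e-04, edgeR) and Slc2a10, a glucose transporter of the GLUT family, from 13.5 ± 1.40 to 24.5 ± 5.04 CPM (0.86 ± 0.18). The third rise was that of Slc2a3, a high-affinity glucose transporter. The falls were those of Eno1b and of Ldhb, the lactate dehydrogenase subunit that favours pyruvate. As the Eno1b row moved as one with that of the member Eno1, its fall may count the same reads again. The 2 falls became 1 with control library 1 left out, and 0 with treated library 4, 5 or 6 left out.

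Of 13 genes of pyruvate oxidation 2 rose and 2 fell, and 11 had a positive estimate (median log2 fold change 0.22). Pdk4, a kinase that inhibits pyruvate dehydrogenase as Pdk1 does, fell from 12.7 ± 1.51 to 7.57 ± 0.37 CPM (-0.75 ± 0.18, adjusted p = 0.0133, edgeR). Pdhb, a subunit of pyruvate dehydrogenase, rose from 106 ± 6.38 to 142 ± 7.24 CPM (0.42 ± 0.10, adjusted p = 0.0141). The others called were Pdha1, the catalytic subunit that these kinases phosphorylate, which rose, and Pcx, pyruvate carboxylase, which fell. The rises became 0 with library size scaling or with treated library 4 left out, and 1 with control library 2, control library 3 or treated library 5 left out. The falls became 1 with any of libraries 1, 2, 5 and 6 left out.

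Of 16 citric acid cycle genes 2 rose and 0 fell. These were Cs, citrate synthase (0.47 ± 0.10, adjusted p = 0.00573, edgeR), and Dlst, a subunit of the oxoglutarate dehydrogenase complex (0.40 ± 0.11). The rises became 1 with any of libraries 1, 4 and 5 left out, and 1 gene was lower with library size scaling. Of 8 pentose phosphate genes 2 rose and 1 fell, namely Rpe (0.70 ± 0.17), Pgls (0.53 ± 0.17) and G6pdx, the enzyme that opens the pathway (-0.42 ± 0.12). With control library 3 left out the test called 0 of the 8 genes. The rises became 1 with any of libraries 1, 4 and 5 left out or with library size or upper quartile scaling, and the falls became 0 with any of libraries 2, 4, 5 and 6 left out and 2 with library size scaling.

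Of 10 glycogen enzymes 2 rose and 2 fell, with Gbe1, the branching enzyme, at 0.45 ± 0.10 and Pgm2, a phosphoglucomutase, at 0.55 ± 0.16. Gys1, glycogen synthase, was among the falls (-0.35 ± 0.11). The rises became 1 with any of libraries 3, 4 and 6 left out or with library size scaling. The falls became 0 with any of libraries 1, 3, 4 and 5 left out, and 1 with library 2 or 6 left out or with no filter. Of 7 gluconeogenesis genes 3 were tested and 1 fell, Pcx (-0.77 ± 0.20). It was not called with library 2, 5 or 6 left out, and 1 other gene was higher with control library 2 left out.

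The factors that control these genes are read against 19.3% of all genes tested that were called in either direction. Of 14 regulators of HIF 1 rose and 0 fell. That gene was Cited2, which competes with HIF for the coactivator p300, and it went from 114 ± 12.2 to 221 ± 18.8 CPM (0.95 ± 0.12, adjusted p = 2.46e-04, edgeR). Of 8 glucose-responsive and MYC factors 7 were tested, of which 1 rose and 1 fell. Txnip, an arrestin-like protein that limits glucose uptake, rose from 176 ± 14.0 to 374 ± 30.1 CPM (1.09 ± 0.11, adjusted p = 8.27e-05), whereas its relative Arrdc4 fell from 106 ± 12.9 to 57.1 ± 4.63 CPM (-0.90 ± 0.12, adjusted p = 4.49e-04). Both are known targets of the glucose-sensing MLX factors. With control library 2 left out 2 genes were higher.

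Among 36 other hypoxia-inducible genes 11 rose and 7 fell (median log2 fold change 0.10), where 9.05% of all genes tested were higher and 10.3% lower. The lists share genes: of these calls, Slc2a3 was counted above with glycolysis and Gbe1, Pgm2 and Gys1 with glycogen, as Pcx was counted in 2 lists. Ero1a, the oxidase that forms disulfide bonds in the endoplasmic reticulum, rose from 564 ± 17.7 to 1120 ± 39.7 CPM (0.99 ± 0.09, adjusted p = 6.40e-05, edgeR). Ppp1r3c, a glycogen-targeting phosphatase subunit, fell from 17.2 ± 0.94 to 6.54 ± 0.91 CPM (-1.39 ± 0.18, adjusted p = 3.31e-04). Chosen after their values were seen, Lox, a collagen crosslinking oxidase, had 5169 ± 474 and 9297 ± 1150 CPM, and Car12, a carbonic anhydrase like Car9, 1.63 ± 0.54 and 5.18 ± 0.50 CPM; both rose. Bhlhe40, a transcriptional repressor, and Hmox1, haem oxygenase, also chosen after their values were seen, were among the falls (-0.63 ± 0.10 and -0.75 ± 0.14). The growth factor Vegfa, a textbook HIF target, did not pass (620 ± 81.3 and 546 ± 45.6 CPM, adjusted p = 0.318). The falls became 4 with library 3 or 5 left out and 3 with treated library 4 left out.

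**Figure D5:**
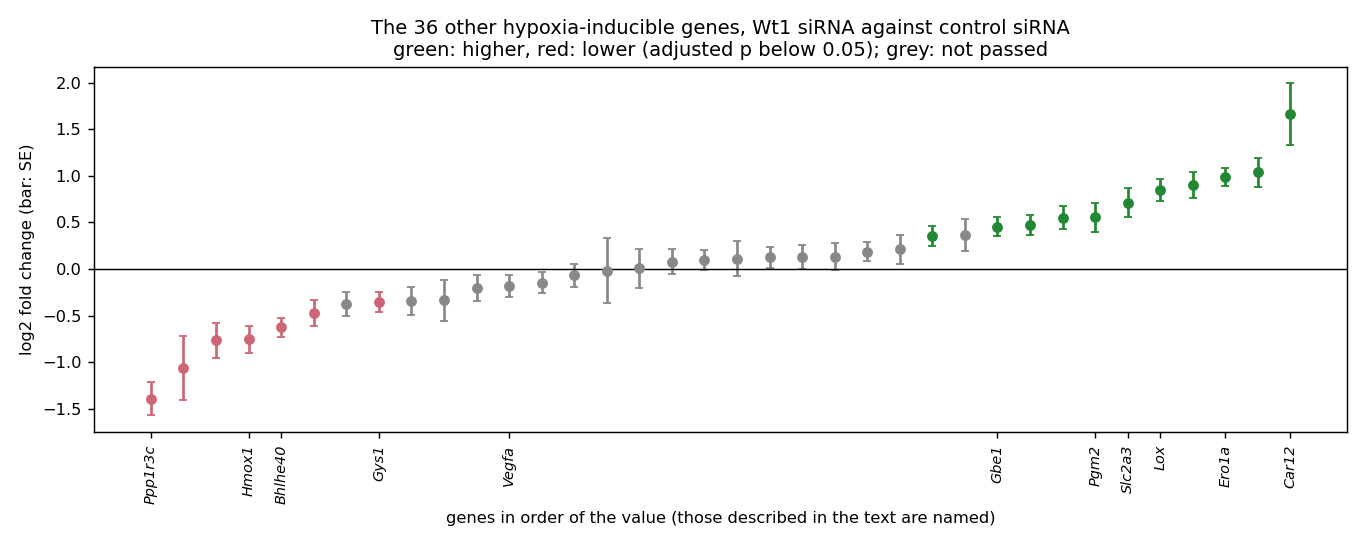
Log2 fold change after Wt1 siRNA against control siRNA (y axis, bars of 1 standard error) for 36 other hypoxia-inducible genes, in order of the value, with names under the genes that the text describes; green points rose, red points fell (edgeR adjusted p below 0.05) and grey points did not pass. The 11 green points and 7 red points lie on both sides of 0, with Ppp1r3c at -1.39 and Ero1a at 0.99.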

How the data were processed

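RNA was sequenced in 6 libraries, 3 per siRNA. The authors deposited a table of raw counts, whole numbers per Entrez gene, with a column for each library. According to the submitters' processing notes, bcl2fastq, CASAVA 1.8, TopHat and DESeq were used and the build was mm10 (GRCm38); their roles are not stated. The sources used here do not give the counter, annotation, strand setting or filters, so reads of near copies and antisense genes could be split or shared. RefSeq GRCm38.p6 gave symbols for 23976 of 24061 IDs. With totals of 26141921 to 32085698, 3 counts are worth 0.0926 to 0.113 CPM; this limit covers counting error only.

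The test was edgeR 4.0.16 (R 4.3.3): TMM, filterByExpr (14190 genes kept), quasi-likelihood F test on the siRNA group, Benjamini-Hochberg at 0.05. CPM use the TMM factors. Standard errors were taken as the size of the log2 fold change over the root of the F statistic. On simulated counts for these 14190 genes and this comparison the test recovered 4.67%, 30.0%, 62.0% and 92.0% of genes changed 1.3-, 1.5-, 2- and 4-fold. Transcript lengths and coding sequences came from GENCODE M21. Alternatives were DESeq2 1.42.0, limma-voom (limma 3.58.1), other scalings and filters, robust shrinkage and each library left out. Members and lists were chosen with earlier results of these data known. Every member is named; those with adjusted p below 0.05, or the most abundant of a role with none, are described in full, with the 2 called genes of smallest p from each further list. Values of some single genes of these lists are not reported here, though the counts include them.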

Additional observations from a re-analysis of the deposited data

How the results depend on the processing

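The median log2 fold change of the members stayed between -0.30 (library size scaling) and -0.17 in all 14 alternatives, and 0 members were higher in any of them. The number of lower members was 10 with every other scaling, filter and tool except library size scaling, which gave 13 by adding Adm, Bnip3 and Ldha (adjusted p = 0.0363, 0.0384 and 0.0480) and moved the median of all genes from 0.0035 to -0.08. Leaving out each library in turn gave 3 to 8 lower members. Over all genes the higher count of 1284 was 855 with library size scaling, where 1829 were lower, and 578 to 1253 with a library left out; the lower count of 1459 was 785 to 1406 with a library left out. Ndrg1 and Egln3 kept their calls in all 14 alternatives. The other 8 lower members lost theirs with at least 1 library left out and in none of the other alternatives. With a library left out, the log2 fold changes of these 8 stayed between -0.68 (Epas1) and -0.28 (Eno1). A hypoxia core of ACGTG alone was in 52.2% of member windows and 21.2% of all, and GCGTG alone in 54.3% and 39.3%. No paired analysis was made, because the labels do not say whether libraries of the groups belong together as pairs. Depth limits Car9. In simulated counts 7 of 150 genes changed 1.3-fold (4.67%) were called, a size close to the falls of Pfkl, Pfkfb3, Pkm, Bnip3l and Eno1. That share was not computed for genes as abundant as these, so it does not give their own rate of recovery. It also depends on how many genes were changed in the simulation, which may differ from the data.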
